A study of Mus musculus with 87 samples.

Results

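Inherited Parkinson disease is linked to a group of genes, and 7 of them are described here: Lrrk2, Pink1, Park7, Vps35, Uchl1, Dnajc6 and Synj1. They were chosen by symbol, as known disease genes, with earlier results of these data known. They are 7 of the 48526 genes in the plate count table and 7 of the 48531 in the single-nucleus table. The study injected IFN-γ or saline into the ventral midbrain of mice and measured nuclear RNA. Its purpose was to compare the responses of neurons and glia over time.

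All mice were C57BL/6J wildtype animals of both sexes, 6 to 12 months old. They received 400 nL of saline, or the same volume with 40 ng of IFN-γ, by stereotaxic injection. In the first experiment, nuclei were sorted at 6, 24, 48 or 72 h on NeuN, a nuclear protein of most neurons encoded by Rbfox3, and unique molecular identifiers (UMIs) at the 3′ ends of transcripts were counted in 84 wells of a plate. Each fraction, NeuN− and NeuN+, had 6 IFN-γ wells per time. Of saline there were 6 wells at 24 h and 4 at each other time. A group came from 2 to 3 mice. No label ties a well to its mouse, so every plate test takes the well as its unit, and its p-values are too small for a statement about mice. Because the deposit labels every one of the 84 wells as NeuN+, each well was assigned to its fraction by barcode from a supplementary list of the study. That list gives 42 wells of each fraction, which differs from the counts in a figure legend of the study. In the second experiment, droplet RNA-seq at 48 h gave 1016 nuclei of 1 saline mouse and 2574 and 1109 nuclei of 2 IFN-γ mice, with median depths of 14645.5, 9404.5 and 11767 UMIs per nucleus. No cell barcode was shared between the 3 mice. The study had sorted these nuclei to be mostly NeuN+, and it left out rare cell types and ambiguous neuronal clusters. Shares of cell types among them are therefore not those of the tissue.

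Depth sets what can be seen of each gene. NeuN− wells ranged from 20962 to 301445 UMIs and NeuN+ wells from 277113 to 1684374, and levels are given as CPM, the UMIs of a gene over all UMIs of the well in the usual scaling. A call is an adjusted p below 0.05 in edgeR's quasi-likelihood test on the counts, with Benjamini-Hochberg adjustment over all genes tested. Genes with too few counts for edgeR's filter are said to be not tested. The sort could be checked in saline wells, where Rbfox3 averaged 132 ± 31.0 CPM (SD, n = 18 wells) in NeuN+ and 13.9 ± 29.9 CPM in NeuN− wells, and the neuronal gene Snap25 741 ± 44.9 and 64.9 ± 25.1 CPM. Snap25 lay in all 18 NeuN+ wells above all 18 NeuN− wells. Rbfox3 overlapped, at 93.8 to 206 CPM in NeuN+ and 0 to 129.9 CPM in NeuN− wells, the highest of which, at 24 h, held 9 counts of it.

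The members act at several steps of membrane and organelle upkeep. Dnajc6 encodes auxilin, which recruits the chaperone Hsc70 to strip clathrin from endocytic vesicles, and Synj1 encodes synaptojanin 1, a lipid phosphatase that acts at the same step in nerve terminals. Lrrk2 encodes a large kinase whose substrates are Rab GTPases, and Vps35 a core subunit of retromer, which returns cargo from endosomes. Pink1 encodes a kinase that accumulates on damaged mitochondria and marks them for removal by autophagy. Park7 encodes DJ-1, which protects against oxidation, and Uchl1 a ubiquitin hydrolase that is abundant in neurons. Loss of dopamine neurons of the ventral midbrain is the hallmark of the disease, and microglia, astrocytes and oligodendrocytes surround these neurons.

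Baseline levels were compared between the fractions in the 18 saline wells of each, with time as a term in the fit. Uchl1 had 56.1 ± 11.97 CPM in NeuN+ and 13.05 ± 12.3 CPM in NeuN− wells. Lrrk2 had 63.7 ± 7.45 and 15.6 ± 11.1 CPM. The fractions of Lrrk2 did not overlap, at 48.1 to 73.7 CPM and 0 to 33.1 CPM, and those of Uchl1 overlapped at their edges, at 34.9 to 78.4 CPM and 0 to 38.2 CPM. The log2 difference was 2.14 (SE 0.26) for Uchl1 and 1.95 (SE 0.20) for Lrrk2, with every NeuN+ well of Lrrk2 above every NeuN− well. Both passed edgeR's filter through the NeuN+ wells, since NeuN− saline wells alone tested neither, with 25 and 33 counts. Their calls are therefore not read as a test, and these values are descriptions. Of Uchl1, 5 of the 18 NeuN− wells had no count, where depth is low. Smaller differences of the same sign were called for Synj1 (237 ± 16.2 against 165 ± 41.7 CPM, log2 difference 0.53) and Dnajc6 (360.3 ± 28.7 against 253 ± 50.2 CPM, 0.50). These genes were thus present in nuclei of both fractions at levels whose wells partly overlapped. Vps35 had 103 ± 13.1 CPM in NeuN+ and 101 ± 28.0 CPM in NeuN− wells, a log2 difference of 0.00 (SE 0.10) that was not called. Pink1 (9.14 ± 3.54 and 15.6 ± 14.5 CPM) and Park7 (15.3 ± 5.89 and 13.2 ± 10.6 CPM) were not tested. In this contrast 4 of 5 members tested were called, where 75.8% of all genes tested were. Uchl1 and Lrrk2, which passed the filter through the NeuN+ wells, are among the 4, so this count is not read as a result about the members.

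Saline wells were also compared across the 4 times, since each time used other mice. By edgeR's quasi-likelihood F test 0 of 3 members tested in NeuN− wells (2.34% of all genes) and 0 of 7 in NeuN+ wells (0.428%) were called. At an unadjusted p below 0.05 there were 0 and 1. That 1 was Vps35 in NeuN+ wells, with means of 96.1 CPM at 6 h, 102 CPM at 24 h, 96.2 CPM at 48 h and 117 CPM at 72 h.

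Single nuclei resolved the levels by cell class. Clustering without the members or the listed pathway genes gave oligodendrocyte-like, astrocyte-like (193 nuclei), VGLUT2 neuron-like, GABA neuron-like and dopamine neuron-like (391 nuclei) classes. A further glial group, cluster 12 (134 nuclei), held all 6 microglial markers searched. Their sum averaged 5095 CPM there over the 3 mice, against 36.5 to 125 CPM in the other classes. It was still left without a name by the rule used, since its median depth was 0.314 of its own mice's and none of these markers was among its 10 leading genes. The rule for naming was set after seeing the data. Levels are CPM of UMIs summed per mouse and class, as mean ± SD over the 3 mice, so the spread includes the treatment. The classes were tested with the mouse as a block. Of the oligodendrocyte-like class, cluster 2 (403 nuclei) had no nucleus of the saline mouse and was led by interferon-induced genes, Iigp1 and Tgtp2 among them. Unequal shares were also seen in other clusters, GABA clusters 8 and 11 and VGLUT2 clusters 15 and 17 among them, so mice differ in the clusters behind a class. The dopamine neuron-like class held 167 of 1016 nuclei of the saline mouse and 128 of 2574 and 96 of 1109 nuclei of the IFN-γ mice.

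Dnajc6 had the widest range of the members over classes. Dopamine neuron-like nuclei had 458 ± 32.8 CPM, VGLUT2 372 ± 16.4, GABA 361 ± 3.79 and oligodendrocyte-like nuclei 229.8 ± 20.2 CPM. Astrocyte-like nuclei and cluster 12 had only 5 UMIs each over the 3 mice, at 3.49 ± 3.17 and 7.71 ± 6.81 CPM. Among the glial groups seen here, Dnajc6 RNA was therefore found almost entirely in the oligodendrocyte-like class, at a level below that of the 3 neuron classes. The mean of the 3 neuron classes exceeded that of the 3 glial groups by 4.41 on the log2 scale (SE 0.16), higher in 3 of 3 mice. Dnajc6 had too few counts to be tested within astrocyte-like nuclei or cluster 12 alone, and it passed the filter through the other groups. Its call in this contrast is therefore not read as a test, and the value is a description. The size of this difference rests on few counts, since astrocyte-like nuclei and cluster 12 had 5 UMIs each, with 0 in the saline mouse. Dopamine neuron-like nuclei exceeded the mean of the GABA and VGLUT2 classes by 0.44 (SE 0.11), again in 3 of 3 mice (edgeR, Benjamini-Hochberg adjusted p = 0.00192). Synj1 was highest in cluster 12, with 233 ± 30.0 CPM against 133 to 138 CPM in the neuron classes, 89.5 ± 12.04 in oligodendrocyte-like and 72.0 ± 17.7 CPM in astrocyte-like nuclei. Its 3 neuron classes did not differ beyond their spread.

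Lrrk2 was almost absent from the oligodendrocyte-like class, where 7 UMIs over 3 mice gave 2.88 CPM in the saline mouse and 1.48 and 0.693 CPM in the IFN-γ mice. Astrocyte-like nuclei had 57.3 ± 17.9 CPM, VGLUT2 51.6 ± 3.11, dopamine 35.7 ± 2.09 and GABA 35.5 ± 9.45 CPM. The astrocyte and VGLUT2 values overlapped, as did the dopamine and GABA values. In cluster 12 the 3 mice gave 0, 1 and 14 UMIs of Lrrk2, in the order saline, IFN-γ mouse 1 and IFN-γ mouse 2, too uneven for a class level. Among the 6 groups, Uchl1 was highest in dopamine neuron-like nuclei (119 ± 30.8 CPM), next to VGLUT2 (111 ± 30.6) and GABA (86.2 ± 32.3), and had 42.2 to 53.3 CPM in the glial groups. These neuron values overlapped between mice. Outside these groups, cluster 7, left without a name and described at the end, had more, with 159 CPM over all its nuclei. Within a mouse the dopamine class was above both other neuron classes in 2 of 3 mice, and in IFN-γ mouse 1 it had 98.4 CPM beside 99.0 CPM in the VGLUT2 class. Against the mean of both classes the log2 difference was 0.41 (SE 0.12), higher in 3 of 3 mice (edgeR quasi-likelihood test, Benjamini-Hochberg adjusted p = 0.00811).

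Pink1 ran the other way. Its highest level was 33.4 ± 7.30 CPM in oligodendrocyte-like nuclei, followed by astrocyte-like nuclei at 27.5 ± 1.79 CPM, the GABA class at 17.7 ± 0.735 CPM, the VGLUT2 class at 17.6 ± 1.95 CPM, cluster 12 at 14.2 ± 8.36 CPM and dopamine neuron-like nuclei at 11.0 ± 1.51 CPM. In 3 of 3 mice the dopamine class was the lowest of the neuron classes, with a log2 difference from the mean of the GABA and VGLUT2 classes of −0.57 (SE 0.17; edgeR quasi-likelihood test, Benjamini-Hochberg adjusted p = 0.00929). Park7 ranged from 23.8 ± 3.17 CPM in dopamine neuron-like nuclei to 49.2 ± 9.49 CPM in cluster 12. Vps35 ranged from 54.5 ± 5.55 CPM in GABA neuron-like nuclei to 97.9 ± 30.4 CPM in cluster 12, and its classes were not told apart by the F test (edgeR, adjusted p = 0.122 after Benjamini-Hochberg).

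Over the 6 groups, 6 of 7 members were called by the F test, all but Vps35, where 80.1% of all genes tested were called. Between neurons and glia 4 of 7 were called, with 58.3% of all genes. These were Dnajc6, Lrrk2 (log2 difference 1.82), Uchl1 (1.34) and Synj1 (0.52). They are differences of means over 3 groups each. The call of Dnajc6 is not read as a test, as said above. Lrrk2 had too few counts to be tested within oligodendrocyte-like nuclei alone, so its call is not read as a test either. Among single groups Synj1 was highest in cluster 12, and Lrrk2 had its highest mean in astrocyte-like nuclei. That lead of Lrrk2 held in the IFN-γ mice and not in the saline mouse, with 36.6 CPM (4 UMIs) beside 54.5 CPM in the VGLUT2 class. The glial mean of Lrrk2 also includes its uneven counts in cluster 12. Between dopamine and other neurons 3 of 7 were called, with 29.2% of all genes. Th, which makes dopamine's precursor, had 150.01 to 169.7 CPM in the dopamine class of the 3 mice and at most 2.95 CPM in the GABA and VGLUT2 classes.

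**Figure D1:**
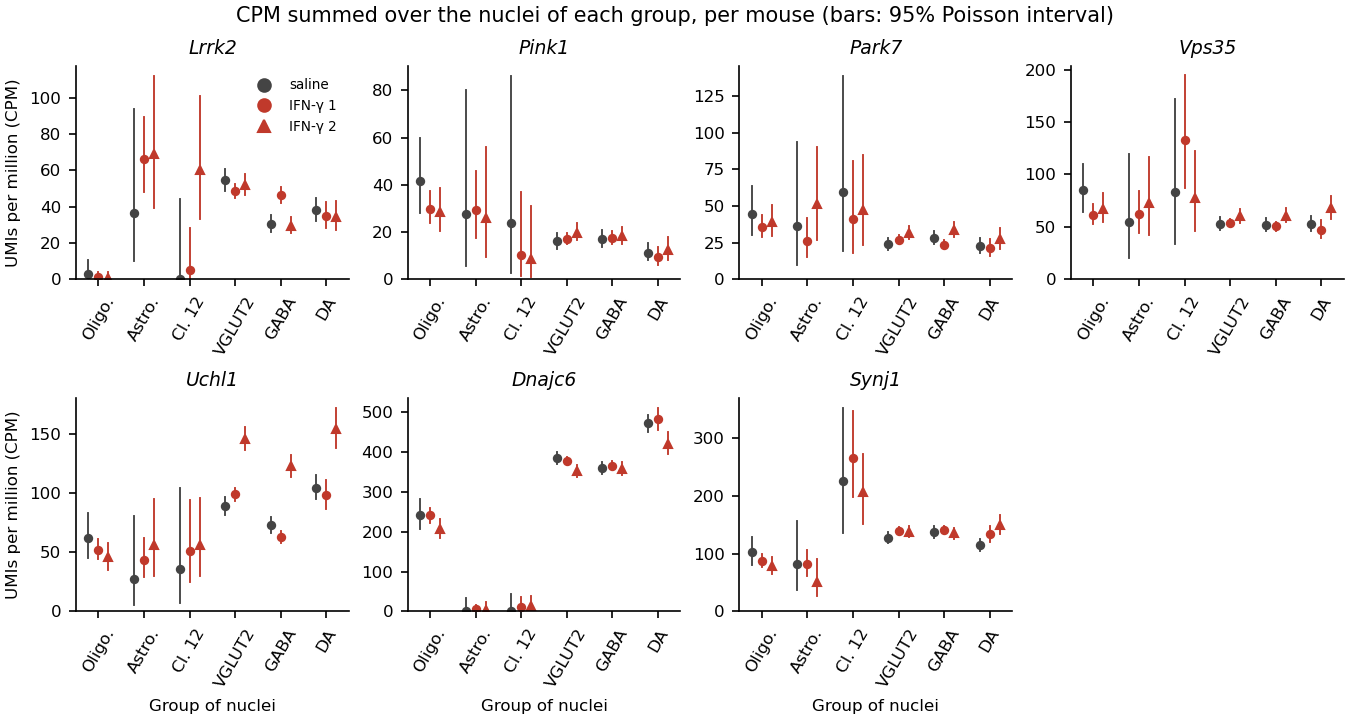
Level of each member in 6 groups of nuclei at 48 h, as CPM of summed UMIs per mouse (points; bars are exact 95% Poisson intervals, which cover counting error only), for the saline mouse and both IFN-γ mice. Dnajc6 lies at 458 CPM in dopamine neuron-like and 229.8 CPM in oligodendrocyte-like nuclei on average and at 3.49 CPM in astrocyte-like nuclei, and Lrrk2 at 1.68 CPM in oligodendrocyte-like nuclei.

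IFN-γ reached the sorted nuclei of both kinds. Irf1, a transcription factor gene induced by interferons, rose by 6.88 and 6.25 on the log2 scale in NeuN− wells at 6 and 24 h and by 6.24 and 5.94 in NeuN+ wells, with all 6 IFN-γ wells above all saline wells each time. In NeuN− wells edgeR called 1 of 3 members tested at 6 h (33.1% of all genes tested), 1 of 2 at 24 h (41.3%), 0 of 3 at 48 h (6.21%) and 0 of 3 at 72 h (3.98%). In NeuN+ wells it called 1 of 6 at 6 h (8.6% of all genes), 0 of 6 at 24 h (11.5%), 0 of 6 at 48 h (0.867%) and 0 of 6 at 72 h (7.17%). At an unadjusted p below 0.05 there were 1, 1, 0 and 0 members in NeuN− and 2, 2, 1 and 1 in NeuN+ wells, and DESeq2 called 1, 1, 0 and 0 and 0, 0, 0 and 0. Members whose IFN-γ wells lay wholly on 1 side of the saline wells numbered 1, 1, 0 and 0 in NeuN− wells (19.1%, 21%, 7.06% and 4.87% of all genes) and 1, 0, 0 and 1 in NeuN+ wells (8.75%, 5.84%, 1.96% and 7.49%). With so few members tested, these counts do not stand out from the shares of all genes. Pink1 was too low to be tested in any of the 8 comparisons. Of these comparisons, those in NeuN+ wells alone tested Lrrk2, Park7 and Uchl1, and Vps35 was not tested in NeuN− wells at 24 h.

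**Figure D2:**
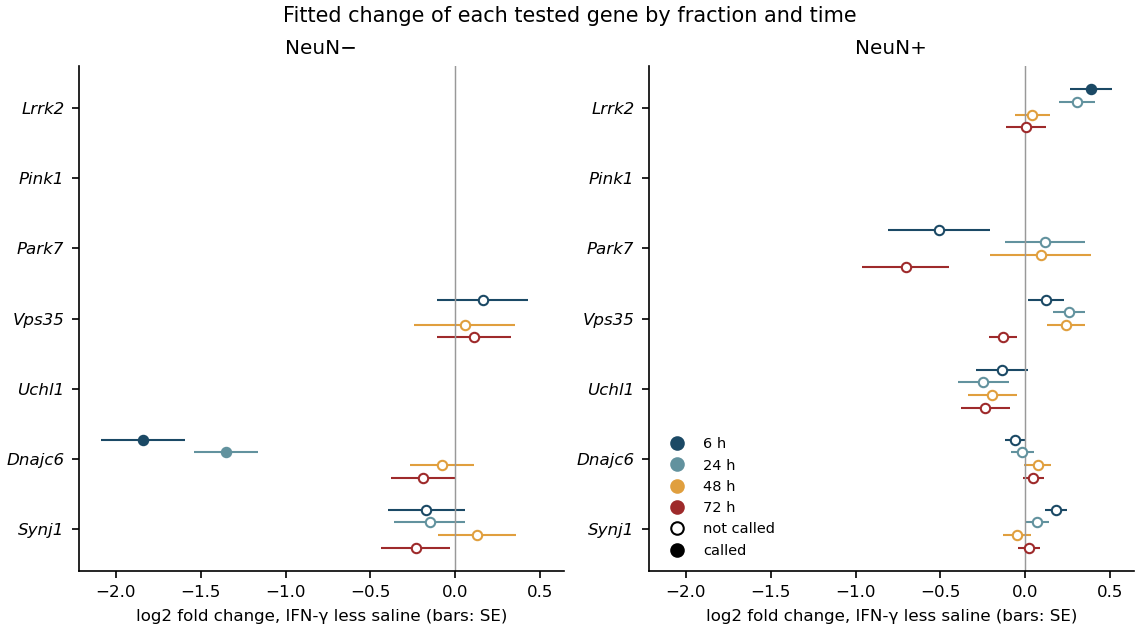
Log2 fold change of IFN-γ against saline (points, with SE as bars) for each member tested, by time in h, in NeuN− and NeuN+ wells; filled points were called by edgeR at an adjusted p below 0.05. Dnajc6 lies at −1.84 and −1.35 in NeuN− wells at 6 and 24 h, and the other called point is Lrrk2 at 0.39 (NeuN+, 6 h).

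Dnajc6, the clathrin uncoating factor, changed most among the members. At 6 h its NeuN− saline wells had 247, 197, 249.9 and 181 CPM. The 6 IFN-γ wells had a lowest value of 0, a median of 58.8 and a highest value of 83.5 CPM. Every IFN-γ well thus lay below every saline well, by more than the spread within either group. Dnajc6 fell by 1.84 on the log2 scale (SE 0.25), lower in 6 of 6 IFN-γ wells (edgeR quasi-likelihood test, Benjamini-Hochberg adjusted p = 1.83e-07). The well at 0 was the shallowest on the plate, with 20962 UMIs, and without it the log2 fold change was −1.81. At 24 h the saline wells ran from 163 CPM through a median of 282 to 332 CPM, and the IFN-γ wells from 73.6 through 109 to 129 CPM. Again no IFN-γ well reached the lowest saline well, and Dnajc6 fell by 1.35 (SE 0.19), lower in 6 of 6 wells (edgeR, Benjamini-Hochberg adjusted p = 1.07e-06).

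By 48 h the groups overlapped. Saline wells of Dnajc6 had 275, 303, 275 and 237 CPM, and IFN-γ wells 193, 225 and 401 CPM as lowest, median and highest value. At 72 h the saline wells had 201, 327, 236 and 251.05 CPM and the IFN-γ wells 172, 199 and 315 CPM. The log2 fold changes, −0.08 (SE 0.19) and −0.19 (SE 0.19), were not called. In NeuN+ wells, the level of Dnajc6 was close to that of saline at each time. Saline wells at 6 h had 368, 346, 366 and 394 CPM against 344, 372 and 391.8 CPM (lowest, median and highest) in IFN-γ wells, and the log2 fold changes at the 4 times lay between −0.06 and 0.07, none of them called.

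Whether the NeuN− and NeuN+ responses differ was tested by the interaction of fraction and treatment. For Dnajc6 the IFN-γ effect in NeuN+ exceeded that in NeuN− wells by 1.74 on the log2 scale at 6 h (SE 0.25) and by 1.23 at 24 h (SE 0.20), with the 6 IFN-γ wells below all saline wells in NeuN− nuclei alone (edgeR quasi-likelihood test, Benjamini-Hochberg adjusted p = 1.11e-06 and 7.71e-06). Its differences at 48 and 72 h were 0.14 (SE 0.20) and 0.25 (SE 0.19) and were not called. By this test 1 of 5 members was called at 6 h (8.65% of all genes tested), 1 of 5 at 24 h (11.1%), 0 of 5 at 48 h (0.723%) and 0 of 5 at 72 h (1.87%). With DESeq2 the counts were 1, 1, 0 and 0, and at an unadjusted p below 0.05 edgeR gave 1, 2, 0 and 0. The second at 24 h was Lrrk2, with −1.42 (SE 0.54). Lrrk2 and Uchl1 passed the filter of this fit through the NeuN+ wells, since neither was tested within NeuN− wells. Their interactions are therefore descriptions and not read as tests. Without NeuN− saline well 2 the Lrrk2 value moved to −2.10 and a call appeared, which is not read as a test either. That well holds 3 of the 6 counts of Lrrk2 in the NeuN− saline wells at 24 h, so both values rest on very few counts.

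Oligodendrocyte marker RNA was lower in the same wells, a sum whose difference was not tested. The 6 markers, Mal, Mag, Mog, Mbp and Mobp among them, were all found, and their sum in NeuN− wells was 6921 to 7973 CPM in saline and 3816 to 4872 CPM in IFN-γ wells at 6 h. At 24 h it was 7044 to 8623 against 2347 to 2944 CPM, and the ranges neared each other at 48 h (7786 to 8692 against 6443 to 7774 CPM) and overlapped at 72 h (7979.6 to 8467 against 7326 to 8260.4 CPM). In such bulk wells, fewer cells of a type and less RNA per cell cannot be told apart. The level of Dnajc6 relative to this sum was compared as well, a comparison added after seeing the data. The markers are RNA of the same treated wells, so this ratio cannot tell fewer cells from less RNA per cell either. At 6 h the log2 ratio was −6.32 ± 0.55 (SD, n = 6) in IFN-γ and −5.11 ± 0.18 (n = 4) in saline wells, lower in 6 of 6 wells, a difference of −1.21 (exact permutation p = 0.00952, 0.0381 after Benjamini-Hochberg adjustment over 4 tests). At 24 h the difference was 0.27 (exact permutation p = 0.1797, adjusted 0.359). At 24 h the ratios of the groups overlapped.

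Markers of other cell types differed in these wells too. The 6 microglial markers, P2ry12 the most abundant, summed to 0 to 125 CPM in NeuN− IFN-γ wells at 6 h against 219.6 to 319.9 CPM in saline wells. The 6 astrocyte markers, Slc1a3 the most abundant, summed to 981 to 1386 CPM at 24 h against 364 to 789 CPM. Y-linked genes summed to 0 to 95.4 CPM in IFN-γ wells at 6 h against 286 to 363 CPM in saline wells, and at 24 h to 692 to 1178 CPM against a mixed 14.8 to 1289 CPM, so the mice of the groups differed in sex. Mitochondrial RNA made up 0.297 to 0.959% of the UMIs in NeuN− IFN-γ wells at 6 h against 0.253 to 0.494% in saline wells, and 0.107 to 0.297% at 24 h against 0.292 to 0.652%. The part of these marker and mitochondrial shifts, and of sex at 6 h, in the falls of Dnajc6 was not tested. A fit with the Y-linked level as a covariate at 24 h, added after seeing the data, gave Dnajc6 −1.39 in NeuN− wells (edgeR, Benjamini-Hochberg adjusted p = 8.91e-06). The IFN-γ wells lie within the upper part of the Y-linked range of the saline wells, so this covariate rests mainly on the saline wells.

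**Figure D3:**
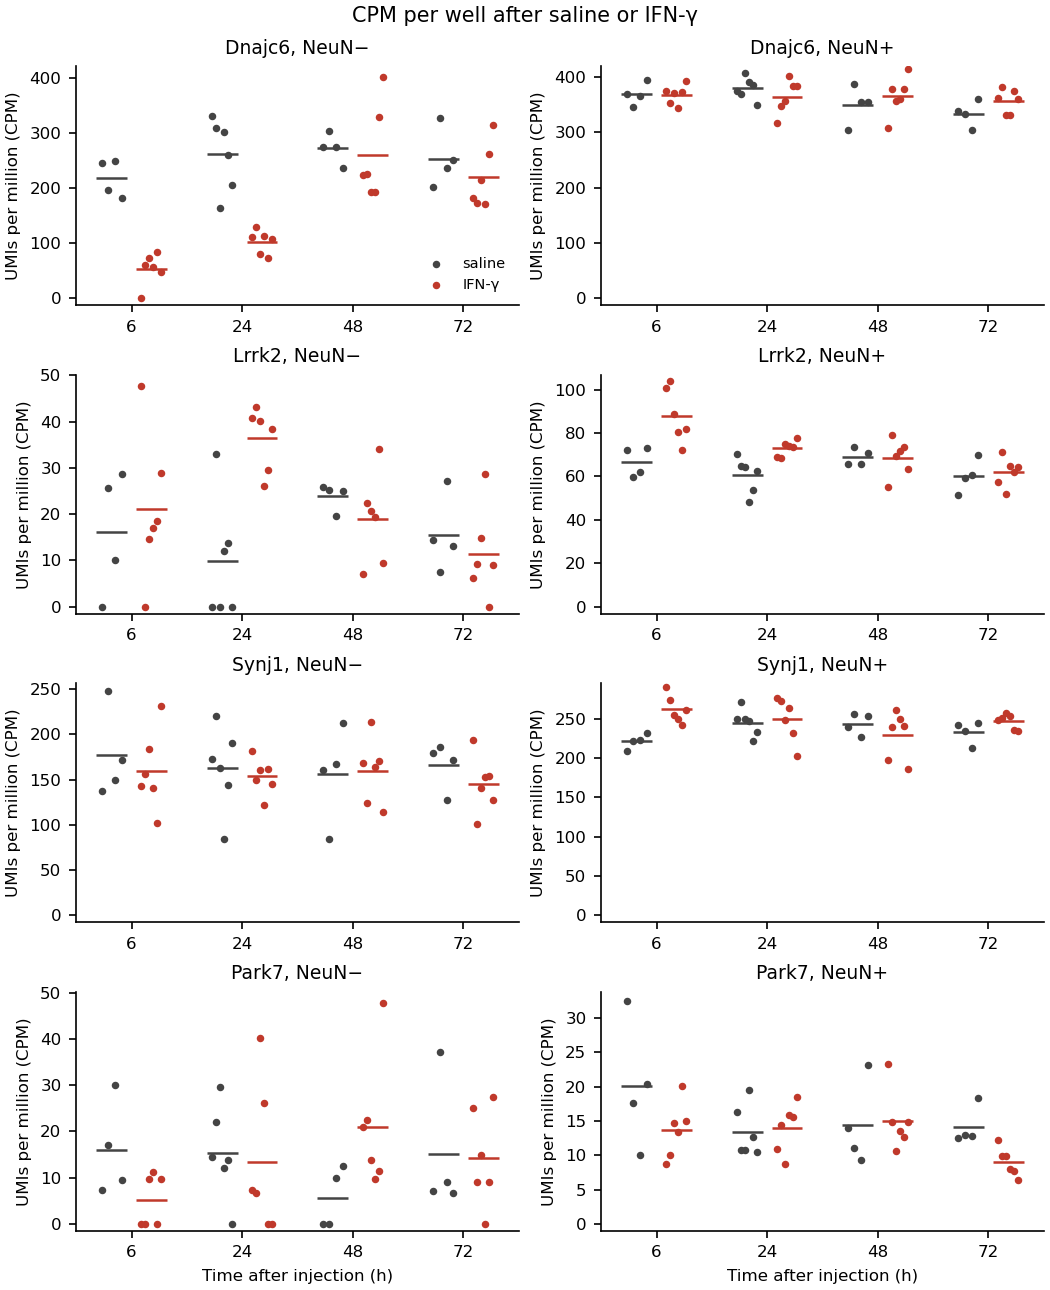
CPM of Dnajc6, Lrrk2, Synj1 and Park7 in every well (points; lines are group means) by time in h, fraction and treatment. Dnajc6 in NeuN− wells stands at 0 to 83.5 CPM at 6 h and 73.6 to 129 CPM at 24 h after IFN-γ, below all saline wells, and the ranges overlap at 48 and 72 h.

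**Figure D4:**
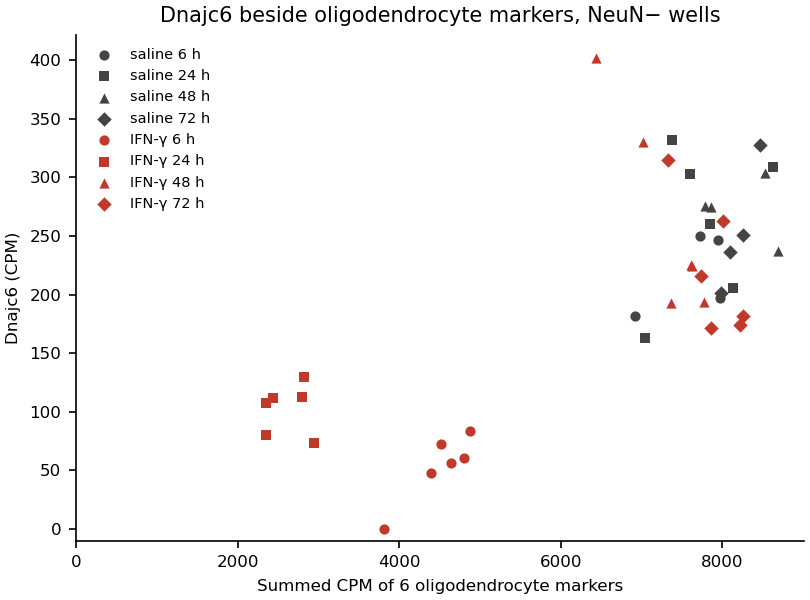
Dnajc6 (CPM, vertical axis) against the summed CPM of 6 oligodendrocyte markers (horizontal axis) in each of the 42 NeuN− wells, by treatment and time. The IFN-γ wells of 24 h have the lowest marker sums, 2347 to 2944 CPM, while those of 6 h reach the lowest Dnajc6, at 0 to 83.5 CPM, with sums of 3816 to 4872 CPM.

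Synj1, which acts with auxilin, did not share that pattern. In NeuN− wells its log2 fold changes were −0.17 (SE 0.23) at 6 h, −0.15 (SE 0.21) at 24 h, 0.13 (SE 0.23) at 48 h and −0.23 (SE 0.20) at 72 h, none of them called. In NeuN+ wells at 6 h the saline wells had 209, 222, 223 and 232 CPM and the IFN-γ wells 242, 258 and 289.7 CPM as lowest, median and highest value. All 6 IFN-γ wells were above all saline wells, yet the log2 fold change of 0.18 (SE 0.07) missed the call (edgeR quasi-likelihood test, Benjamini-Hochberg adjusted p = 0.0903). From 24 h on, Synj1 lay between −0.05 and 0.07 in NeuN+ wells.

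Lrrk2, the Rab kinase, was called once. Its NeuN+ saline wells at 6 h had 72.2, 59.8, 61.8 and 73.0 CPM, and the IFN-γ wells a lowest value of 72.3, a median of 85.3 and a highest value of 104 CPM. The lowest IFN-γ well lay between the 2 highest saline wells, and 5 of 6 were above all of them. Lrrk2 rose by 0.39 (SE 0.12; edgeR quasi-likelihood test, Benjamini-Hochberg adjusted p = 0.0452). The call rested on single wells: it was lost without IFN-γ well 1 (0.0995 after edgeR and Benjamini-Hochberg), 2 (0.108) or 3 (0.0610) and without saline well 2 (0.176), 3 (0.158) or 4 (0.0589), with log2 fold changes of 0.33 to 0.45 over all 10 wells left out. DESeq2 did not call it. At 24 h NeuN+ saline wells ran from 48.1 through 63.4 to 70.3 CPM and IFN-γ wells from 68.5 through 73.8 to 77.5 CPM, which overlap in their outermost wells. The log2 fold change was 0.30 (SE 0.11; edgeR, Benjamini-Hochberg adjusted p = 0.0623), and without saline well 1 it was 0.35 with an adjusted p of 0.0309. At 48 and 72 h it was 0.04 and 0.00.

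In NeuN− wells Lrrk2 was carried by few counts and was not tested within that fraction. At 24 h, 36 counts gave 26.1, 39.3 and 43.1 CPM (lowest, median and highest) in IFN-γ wells, against 6 counts and 0, 6.06 and 33.1 CPM in saline wells, 3 of which had none. In 1 fit of all 84 wells it passed the filter through the NeuN+ wells, and its NeuN− log2 fold change at 24 h was 1.72. That value rests on those 6 saline counts, so its call in that fit is not read as a test. Astrocyte-like nuclei are a glial class with Lrrk2, and astrocyte markers were higher in these IFN-γ wells, whose part was not tested. At the other times the NeuN− means were 21.1, 18.9 and 11.3 CPM after IFN-γ and 16.1, 24.0 and 15.6 CPM after saline. NeuN+ wells at 6 h also differed in marker sums. The 4 thalamic markers, Tcf7l2 the most abundant, summed to 36.9 to 66.0 CPM in IFN-γ wells against 179 to 219.6 CPM in saline wells, and the 6 dopamine markers, Slc18a2 the most abundant, to 386 to 534 against 281 to 391.6 CPM. Oligodendrocyte markers summed to 157 to 209 against 288 to 403 CPM and astrocyte markers to 26.0 to 37.3 against 50.5 to 80.8 CPM. Y-linked genes summed to 4.30 to 9.99 against 151 to 224 CPM. Whether cell numbers or RNA per cell differed cannot be told apart here either. The part of these shifts in the rise of Lrrk2 was not tested.

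Pink1, the mitochondrial kinase, could be followed only as counts. NeuN+ wells held 163 counts in 18 saline wells (3.98 to 15.3 CPM) and 189 in 24 IFN-γ wells (3.31 to 13.03 CPM). In NeuN− wells there were 30 and 44 counts, with 4 saline and 5 IFN-γ wells at 0. Means in NeuN+ wells were 11.8, 10.1, 8.41 and 5.84 CPM after saline and 7.50, 6.91, 6.85 and 6.68 CPM after IFN-γ at 6, 24, 48 and 72 h. The ranges overlapped at each time, and the difference was not tested.

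Park7, the DJ-1 gene, had few counts as well. In NeuN+ wells at 72 h its saline wells had 12.6, 12.9, 12.9 and 18.3 CPM and its IFN-γ wells 6.36, 8.91 and 12.2 CPM as lowest, median and highest value. All 6 IFN-γ wells were below all saline wells, at 66 counts in all against 57 in 4 saline wells. The log2 fold change of −0.70 (SE 0.26) missed the call (edgeR quasi-likelihood test, Benjamini-Hochberg adjusted p = 0.0947). At 6, 24 and 48 h it was −0.51 (SE 0.30), 0.12 and 0.09. The 72 h wells differed in marker sums too: dopamine markers summed to 452 to 566 CPM after IFN-γ against 152 to 252 CPM after saline, oligodendrocyte markers to 600.1 to 700.1 against 344 to 418 CPM, and thalamic markers to 102 to 179.6 against 322 to 507 CPM. Mitochondrial RNA made up 0.0287 to 0.0400% of the UMIs in these wells after IFN-γ against 0.0499 to 0.0860% after saline. What these shifts add to the level of Park7 was not tested.

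Vps35, the retromer subunit, was not called in the comparisons within a time. In NeuN+ wells at 24 h saline wells ran from 92.3 through 99.1 to 117 CPM and IFN-γ wells from 103 through 117 to 136 CPM, overlapping in range. The log2 fold change was 0.26 (SE 0.09; edgeR quasi-likelihood test, Benjamini-Hochberg adjusted p = 0.0685). Without IFN-γ well 4 it was 0.30 (edgeR, Benjamini-Hochberg adjusted p = 0.0489) and without saline well 6 it was 0.32 (0.0212). In 1 fit of all 84 wells it was called, with 0.26 and an adjusted p of 0.0482 (edgeR, Benjamini-Hochberg). At 6, 48 and 72 h it was 0.12, 0.24 and −0.13, and in NeuN− wells 0.16, 0.06 and 0.11 at the same times, none of them called. At 24 h NeuN− wells, not tested within that fraction, had 73.6, 129.9 and 181 CPM (lowest, median and highest, from 117 counts) after IFN-γ and 57.7, 80.1 and 119 CPM (44 counts) after saline, which overlap. The fit of all 84 wells gave 0.57 there, not called (edgeR, Benjamini-Hochberg adjusted p = 0.0967). Means of Vps35 lay between 84.9 and 137 CPM in all 16 groups of wells.

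Uchl1, the ubiquitin hydrolase, was not called in any NeuN+ comparison with saline wells of the same time. Its log2 fold changes were −0.14, −0.25, −0.19 and −0.23 at 6, 24, 48 and 72 h, with means of 53.4, 49.1, 49.2 and 43.2 CPM after IFN-γ and 57.6, 61.3, 55.0 and 48.2 CPM after saline. The mean after IFN-γ was the lower at each of the 4 times, within the spread of the wells. With the saline wells of all 4 times in place of those of 72 h, Uchl1 was called at 72 h, with −0.38 (edgeR quasi-likelihood test, Benjamini-Hochberg adjusted p = 0.0471). In NeuN− wells 43 counts in 24 IFN-γ wells and 25 counts in 18 saline wells gave no test within that fraction.

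In single nuclei at 48 h, IFN-γ was compared with saline per class, with 1 saline mouse, so that the spread comes from the 2 IFN-γ mice. EdgeR called 0 of 6 members tested in oligodendrocyte-like nuclei (2.43% of all genes), 0 of 5 in astrocyte-like nuclei (0.402%), 0 of 5 in cluster 12 (5.77%), 0 of 7 in VGLUT2 (0.231%), 0 of 7 in GABA (0.0576%) and 0 of 7 in dopamine neuron-like nuclei (0.112%). At an unadjusted p below 0.05 the counts were 0, 0, 0, 1, 0 and 0, and no other tool was run on these sums. A single saline mouse cannot tell treatment from mouse.

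Dnajc6 in oligodendrocyte-like nuclei had 242 CPM in the saline mouse and 241 and 206 CPM in the IFN-γ mice, with intervals of 207 to 281, 223 to 260.3 and 184 to 231 CPM. At 48 h the 3 mice therefore overlapped in this class, and the log2 fold change was −0.03 (SE 0.18). Within cluster 2, which lacks saline nuclei, Dnajc6 had 242 CPM (219 to 266). Dopamine neuron-like nuclei had 472 CPM in the saline mouse and 482 and 421 CPM in the IFN-γ mice. The VGLUT2 class held the value below 0.05 unadjusted, Uchl1, with 88.9 CPM in the saline mouse and 99.0 and 146 CPM in the IFN-γ mice. Uchl1 was higher in IFN-γ mouse 2 than in the other mice in all 3 neuron classes, at 146, 123 and 155 CPM in VGLUT2, GABA and dopamine neuron-like nuclei, whereas IFN-γ mouse 1 had 99.0, 62.6 and 98.4 CPM beside saline values of 88.9, 72.9 and 105 CPM. The 2 IFN-γ mice thus differed from each other more than mouse 1 differed from saline.

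Partners of the members were followed through 7 lists of genes with textbook roles. Of all list genes tested in NeuN− wells, 7 were higher and 9 lower of 56 at 6 h (28.6% called, beside 33.1% of all genes), 3 and 11 of 37 at 24 h (37.8%, beside 41.3%), 0 and 1 of 47 at 48 h (2.13%, beside 6.21%) and 0 of 55 at 72 h (beside 3.98%). In NeuN+ wells 5 were higher and 2 lower of 130 at 6 h (5.38%, beside 8.6%), 5 and 6 of 138 at 24 h (7.97%, beside 11.5%), 0 of 140 at 48 h (beside 0.867%) and 3 and 4 of 135 at 72 h (5.19%, beside 7.17%). Each of the 8 shares was below that of all genes, a difference that was not tested. The same shares of all genes stand beside the counts of each list below, and no count is read as particular to a list. The counts of 0 are those of edgeR's quasi-likelihood test, and the lists were not counted with other tools.

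The clathrin list, the closest to Dnajc6 and Synj1, had 0 higher and 4 lower of 18 genes in NeuN− wells at 6 h (beside 33.1% of all genes called) and 1 and 7 of 15 at 24 h (beside 41.3%, with 401 of 1883 genes lower), with median log2 fold changes of 0.02 and −0.19 beside −0.00 and 0.01 for all genes. Bin1, which bends membranes at endocytic pits and T-tubules, fell by 1.11 at 6 h (162 ± 39.1 against 356 ± 93.6 CPM), and Dnm2, the dynamin that cuts vesicles free, fell by 1.14 at 24 h (101 ± 34.5 against 194 ± 61.2 CPM). Aak1, a kinase of the clathrin adaptor, rose by 0.49 there. In NeuN+ wells the list had 1 and 1 of 30, 2 and 1 of 31, 0 of 31 and 0 and 1 of 30 at the 4 times, and Sh3gl3 rose by 0.49 at 24 h. Oligodendrocyte markers were lower in the NeuN− wells at 6 and 24 h, and their part in the lower clathrin genes was not tested.

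In the mitophagy list, 3 of 10 genes were higher and none lower in NeuN− wells at 6 h (beside 33.1% of all genes called), with a median of 0.33 beside −0.00 for all genes, and 0 of 6 were called at 24 h. Bnip3, a mitophagy receptor, rose by 2.07 at 6 h (111 ± 30.8 against 25.1 ± 21.5 CPM), and Rhot1, a mitochondrial transport GTPase, rose by 1.25 (269.6 ± 62.5 against 96.6 ± 33.1 CPM). In NeuN+ wells 0 of 26, 2 of 27, 0 of 27 and 1 of 27 were called, all 3 lower. Tomm20 fell by 0.55 at 24 h and Tomm7, which holds PINK1 at the outer membrane, fell by 0.83 at 72 h (10.0 ± 2.99 against 18.3 ± 4.17 CPM).

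The list of LRRK2 and its Rab substrates had 0 higher and 2 lower of 6 in NeuN− wells at 6 h and 0 of 3 at 24 h. Neither of the 2 lower genes, Chn2 and the 14-3-3 gene Ywhaq, is a Rab gene. Chn2 fell by 1.83 (35.5 ± 20.004 against 139.8 ± 36.6 CPM) and Ywhaq by a log2 fold change of −0.43. In NeuN+ wells 1 and 1, 1 and 0, 0 and 0 and 2 and 0 of 17 were called at the 4 times, among them Chn2 at 72 h with 0.41 and Ywhaq at 24 h with 0.31. The retromer and WASH list had 2 and 2 of 10 at 6 h and 1 and 2 of 9 at 24 h in NeuN− wells. Tbc1d5, which releases retromer from endosomes, fell by 0.92 at 24 h (1104 ± 135 against 1990.3 ± 169 CPM), while Dnajc13 rose by 0.62 at 6 h. In NeuN+ wells it had 2 and 0, 1 and 1 and 0 and 1 of 21 at 6, 24 and 72 h and 0 of 22 at 48 h.

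Among redox genes near DJ-1, NeuN+ wells had 1 higher of 17 at 6 h, 1 higher and 1 lower of 20 at 24 h and 1 lower of 19 at 72 h. Nfe2l2, the transcription factor of the oxidative stress response, rose by 0.77 and Prdx5 fell by 0.84 at 24 h, and Prdx1 fell by 0.74 at 72 h (16.8 ± 4.82 against 26.8 ± 6.47 CPM). Txnrd1 rose by 1.502 in NeuN− wells at 6 h, 1 of 2 tested there. Of the UCH and free ubiquitin list, with Uchl1 left out, 0 of 7 or 8 genes were called in NeuN+ wells at any time and 0 of 3 in NeuN− wells at 6 h. Of other inherited parkinsonism genes, NeuN− wells had 1 higher and 1 lower of 7 at 6 h and 1 and 2 of 4 at 24 h. Slc39a14 rose by 2.45 at 6 h, and Mapt, which encodes tau, fell by 1.45 at 24 h (276 ± 74.3 against 659 ± 109 CPM). The lower oligodendrocyte markers in NeuN− wells at 6 and 24 h stand beside these list genes too, and their part was not tested.

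Baseline differences of the lists were counted in the same way. Of 89 list genes tested between the saline fractions, 28 were higher and 36 lower in NeuN+ wells (71.9%, beside 75.8% of all genes). In single nuclei 45 of 163 were higher and 56 lower in neurons than in glia (62.0%, beside 58.3%), and 17 higher and 20 lower in dopamine than in other neurons (22.7%, beside 29.2%). Gch1, needed for dopamine synthesis, stood out in the dopamine class with a log2 difference of 6.46 (SE 0.20). The endophilin gene Sh3gl2, which works with Synj1, was lower there by a log2 difference of −0.81 (SE 0.12). Among Lrrk2 substrates and regulators, Rab29 was lower in neurons than in glia by a log2 difference of −4.19 (SE 0.56).

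The genes most like each member were ranked by Pearson correlation of log2(CPM + 1) over the 16 group means of fraction, treatment and time, among 10294 genes with at least 10 CPM in a fraction. The points share wells, depth and the step between fractions, so these are descriptions. For Dnajc6 they were Usp11 (0.984), Atl1 (0.979) and 4933406I18Rik (0.973). For Synj1 they were St8sia6 (0.986), Mmp24 (0.984) and B830012L14Rik (0.983), and for Lrrk2 Gm14410 (0.982), AI504432 (0.980) and Ccdc79 (0.976). Uchl1 was closest to Cx3cl1 (0.989), Kcnc2 (0.985) and Cyp46a1 (0.981). Park7 (Bcap29, 0.902), Pink1 (Ccdc62, 0.843) and Vps35 (Aoah, 0.785) had weaker nearest genes. Between members the closest pairs were Uchl1 and Synj1 (0.949), Lrrk2 and Synj1 (0.846) and Lrrk2 and Uchl1 (0.836), whereas Lrrk2 and Pink1 had −0.388.

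The members differ in size and position (GRCm38, Gencode vM21 coordinates). Dnajc6 (ENSMUSG00000028528.16) spans 146 kb of chromosome 4, from 101496648 to 101642799 (plus strand), and Lrrk2 (ENSMUSG00000036273.15) 143 kb of chromosome 15, from 91673175 to 91816120 (plus strand). Synj1 (ENSMUSG00000022973.17) lies on chromosome 16 from 90936092 to 91011308 and Vps35 (ENSMUSG00000031696.9) on chromosome 8 from 85260392 to 85299802, both on the minus strand. Pink1 (ENSMUSG00000028756.12) and Park7 (ENSMUSG00000028964.14) lie on chromosome 4, from 138313409 to 138326307 and from 150897133 to 150914437, also on the minus strand. Uchl1 (ENSMUSG00000029223.12) lies on chromosome 5 from 66676091 to 66687234 (plus strand). Per kb of gene, the NeuN+ saline level was highest for Uchl1 (5.04 CPM) and Synj1 (3.15 CPM) and lowest for Lrrk2 (0.446 CPM). Per kb of exon it was highest for Dnajc6 (61.0 CPM) and lowest for Pink1 (3.42 CPM), so the order depends on the length used.

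Annotated neighbours overlap 5 of the 7 members, and use of strand in the counting is not given in the sources used here. Vps35 shares 171 bases with Orc6 on the other strand, which had 26.3 CPM in NeuN− and 24.6 CPM in NeuN+ saline wells. Uchl1 shares 408 bases with its antisense gene Uchl1os (0.821 and 8.34 CPM). Reads in shared bases cannot be told apart. Lrrk2 and Park7 had no overlapping gene.

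Promoter windows of 300 bases (250 before the first transcribed base and 50 after it, RefSeq, GRCm38.p6) were given for 6 members, 8 windows in all, and none for Vps35. The windows were searched on both strands for the GAS letters TTCNNNGAA and the ISRE letters, GAAA and GAAA with a pair of free bases between them. None of the 8 windows holds either run of letters, and of all 32851 promoters 8.30% hold the first and 3.44% the second. The upstream sequences of the members with an IFN-γ call and a window are shown, so that the starts behind the falling and the rising gene can be seen. Each has 250 bases in lower case on the plus strand, and the capital marks the first transcribed base. Dnajc6 has 2 starts, 11.3 and 53.9 kb inside the annotated gene start, at chr4:101507726-101507976 and chr4:101550344-101550594, and the start of Lrrk2 is at chr15:91672974-91673224.
Dnajc6 start 1: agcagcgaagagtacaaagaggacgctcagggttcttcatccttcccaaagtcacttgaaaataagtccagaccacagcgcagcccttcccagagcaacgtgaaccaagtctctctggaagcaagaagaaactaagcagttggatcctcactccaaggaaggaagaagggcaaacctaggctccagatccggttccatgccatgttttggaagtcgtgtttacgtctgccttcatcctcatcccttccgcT
Dnajc6 start 2: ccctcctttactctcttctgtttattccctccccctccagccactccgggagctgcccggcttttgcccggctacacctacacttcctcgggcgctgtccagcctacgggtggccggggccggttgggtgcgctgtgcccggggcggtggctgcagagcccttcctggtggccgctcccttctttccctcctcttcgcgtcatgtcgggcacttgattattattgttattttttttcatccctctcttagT
Lrrk2: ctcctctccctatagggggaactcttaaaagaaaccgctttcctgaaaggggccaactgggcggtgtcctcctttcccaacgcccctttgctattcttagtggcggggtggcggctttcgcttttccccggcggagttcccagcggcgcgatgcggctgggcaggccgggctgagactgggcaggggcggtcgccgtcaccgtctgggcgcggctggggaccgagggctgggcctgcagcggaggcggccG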

How the data were processed

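The authors aligned reads with STAR in 2 passes to GRCm38 with Gencode vM10, collapsed UMIs at a Hamming distance of 1 and deposited the counts used here, with introns counted and doublets removed for the single nuclei. Use of strand is not given in the sources used here. Plate counts were tested with edgeR 4.0.16 (TMM factors, filterByExpr, quasi-likelihood F tests, Benjamini-Hochberg adjustment) per time and fraction, and for the interaction of fraction and treatment. Nuclei were clustered in Python 3.11.15 on 2000 variable genes, 30 components and 15 neighbours with leidenalg 0.10.2 at resolution 1, without the members and listed genes, and their UMIs were summed per mouse and class. Alternatives were RLE factors, no filter, DESeq2 1.42.0, the study's limits, leaving out each well or mouse, saline wells of all 4 times, 1 fit of 84 wells, and resolutions 0.5 and 2. Added after seeing the data were a Y-linked covariate at 24 h, ratios to oligodendrocyte markers and the rule for naming clusters. The members and lists were chosen with earlier results of these data known. Genes named beside the members were the 2 of each list with the largest called differences per direction, the 3 nearest in likeness, markers and controls. Some items withheld for evaluation, a member among them, are not reported here.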

Additional observations from a re-analysis of the deposited data

Results flagged for a closer look

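Of 70 groups of wells searched, 4 held a value far from the others of its group, where about 1 in 20 is expected by chance. Park7 had 18.3 CPM in a NeuN+ saline well at 72 h, beside 12.6 to 12.9 CPM. Vps35 had 58.1 CPM in a NeuN+ IFN-γ well at 48 h with 344073 UMIs, beside 111 to 126 CPM. Uchl1 had 72.3 CPM in a NeuN+ IFN-γ well at 6 h, beside 47.6 to 54.5 CPM. Dnajc6 had 0 CPM in the NeuN− IFN-γ well at 6 h with 20962 UMIs, beside 48.2 to 83.5 CPM. Dnajc6 also differed between the fractions in its IFN-γ effect, by 1.74 at 6 h and 1.23 at 24 h on the log2 scale.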

How the results depend on the processing

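With the saline wells of all 4 times, 1 member, Uchl1, was called in NeuN+ wells at 72 h, and log2 fold changes near 0 turned: NeuN− 48 h Vps35 −0.063, Dnajc6 0.030 and Synj1 −2.28e-04. In NeuN+ wells these were Dnajc6 0.00611 at 6 h, Park7 −0.040 and Dnajc6 0.026 at 24 h, Park7 −0.038 at 48 h, and Lrrk2 −0.019, Vps35 0.092 and Dnajc6 −0.016 at 72 h. Without a filter NeuN− wells at 24 h had Synj1 0.023, the Uchl1 interaction at 6 h −0.021 and Park7 in GABA neuron-like nuclei −2.25e-04. The study's limits left 0 calls in NeuN+ wells at 6 h, where DESeq2 also had 0. In 1 fit of 84 wells 2 were called in NeuN+ wells at 24 h, Lrrk2 and Vps35, and 2 in NeuN− wells at 24 h, Dnajc6 and Lrrk2. There Lrrk2 passed the filter through the NeuN+ wells, so its NeuN− call is not read as a test. Added after seeing the data, the Y-linked covariate gave Dnajc6 0.058 in NeuN+ wells at 24 h, and the marker ratio Dnajc6 0.27 at 24 h and 0.059 at 48 h. With all 84 wells the Vps35 difference between fractions was −0.038. In nuclei RLE factors gave Park7 −4.23e-04 in the GABA class, and resolution 0.5 gave Dnajc6 −0.00897 there. Leaving out 1 well at a time gave in NeuN− wells Vps35 −0.041 to 0.28 and Synj1 −0.31 to 0.036 at 6 h, and Vps35 −0.12 to 0.36, Dnajc6 −0.24 to 0.023 and Synj1 −0.070 to 0.26 at 48 h. In NeuN+ wells it gave 0 to 1 calls at 6 h and 0 to 1 at 24 h, Dnajc6 −0.043 to 0.015 at 24 h, Park7 −0.097 to 0.38 at 48 h, and Lrrk2 −0.073 to 0.085 at 72 h. Interactions ran over Lrrk2 −0.045 to 0.90, Vps35 −0.15 to 0.16 and Uchl1 −0.36 to 0.45 at 6 h, 1 to 2 calls and Uchl1 −0.49 to 0.31 at 24 h, Vps35 −0.17 to 0.36 and Synj1 −0.30 to 0.019 at 48 h and Uchl1 −0.62 to 0.42 at 72 h. The second interaction call at 24 h was that of Lrrk2, which is not read as a test. Without a mouse, dopamine against other neurons gave Synj1 −0.018 to 0.14. The calls of Dnajc6 in NeuN− wells at 6 and 24 h were kept with each well left out. No paired analysis was possible because the labels carry no replicate numbers that tie wells to mice. In the NeuN− comparisons at each time Lrrk2, Pink1, Park7 and Uchl1 had too few counts to be tested.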

Other observations

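Cluster 7 (257 nuclei, median 2003 UMIs) matched no class. Its median depth was 0.19 of its own mice's, and its 10 leading genes were Gm23935, Cmss1, Mir6236, Thsd7b, Uchl1, Rgs6, Hdac9, Rn18s-rs5, Gm42418 and Gm16183, with a ribosomal RNA gene, Rn18s-rs5, among them. The part of low depth in the levels below was not tested. It held 3.94% of saline nuclei and 6.06% and 5.50% of nuclei of the IFN-γ mice. Uchl1 had 174 CPM there in the saline mouse (exact Poisson 95% interval 106 to 268) and 165 (127 to 211) and 139 CPM (92.5 to 201) in the IFN-γ mice, and Dnajc6 391, 449 and 472 CPM.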
